A study of Homo sapiens with 6 samples.

Results

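The mRNA levels of 8 secreted cytokine genes, the interleukins IL1A, IL1B, IL6 and IL11, the leukemia inhibitory factor LIF and the colony-stimulating factors CSF1, CSF2 and CSF3, were examined in MDA-MB-231 cells, a human line derived from triple-negative breast cancer (TNBC). All 8 were found by their gene symbol in both count tables, among 41471 symbols in the knockdown experiment and 34157 in the rebastinib (Reb) experiment. The genes were selected on measured values, namely the fall of CSF3, IL1B and IL11 with Reb, so their changes with Reb are given as a description and were not tested. The knockdown experiment held 3 stable lines made with lentiviral shRNA and flow sorting of the infected cells, 1 with a scramble hairpin, 1 with CDK16-sh1 and 1 with CDK16-sh2. The Reb experiment held cells kept for 48 h in DMSO, in 1 uM Reb or in 5 uM Reb, which the study used as a CDK16 inhibitor. The study also describes Reb as acting on further kinases, such as Tie2. All cells were of the same line in serum-containing medium, and only those of the knockdown experiment carried a hairpin. Each of the 6 conditions had 1 library, so no difference below has a replicate check and both treated libraries of an experiment shared their control.

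Interleukin 1 alpha and beta are alarm cytokines that bind the receptor pair of IL1R1 and IL1RAP and switch on NF-kB through MYD88 and the IRAK kinases. IL-6, IL-11 and LIF signal through the shared receptor chain gp130, encoded by IL6ST, to JAK kinases and STAT3. The colony-stimulating factors M-CSF (CSF1), GM-CSF (CSF2) and G-CSF (CSF3) drive the growth of macrophages and granulocytes, and TNBC cells are known to secrete several of them. Transcription of most of these genes is under control of NF-kB, C/EBP and AP-1 factors, and many of their mRNAs are short-lived through AU-rich elements, repeats of the motif AUUUA in the 3' untranslated region.

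The genes lie on 7 chromosomes. In the coordinates of the deposited tables (GRCh38), IL1A spans 112773915 to 112784590 and IL1B 112829751 to 112836903 on the minus strand of chromosome 2, 45.2 kb apart. CSF3 spans 40015361 to 40017813 on the plus strand of chromosome 17 and CSF2 132073790 to 132076170 on the plus strand of chromosome 5. IL11 spans 55364389 to 55370463 on the minus strand of chromosome 19 and LIF 30240447 to 30246851 on the minus strand of chromosome 22. IL6 spans 22725884 to 22732002 on the plus strand of chromosome 7 and CSF1 109910242 to 109930992 on the plus strand of chromosome 1.

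The AU-rich stretches are shown first because they are a sequence feature that the choice of genes did not use and that most of the 8 mRNAs share. In the longest annotated 3' untranslated region of each gene (GENCODE 29), ATTTA occurred 8 times in the 318 bases of CSF2, 6 times in the 610 bases of IL1B, 6 times in the 429 bases of IL6, 7 times in the 854 bases of CSF3 and 9 times in the 1618 bases of IL11. Per kb this was 25.2 for CSF2, 14.0 for IL6, 9.84 for IL1B, 8.20 for CSF3 and 5.56 for IL11, against a median of 1.58 over 18258 genes with a 3' untranslated region of at least 100 bases. IL1A had 4.34 per kb, and the lowest densities were those of LIF with 2.18 and CSF1 with 1.86. A run of overlapping motifs of at least 9 bases was found in 7.24% of the 18258 genes and in 3 of the 8, whose runs measured 21 bases in CSF2 and 13 bases in both IL1B and IL11. Windows of 30 bases around these runs are printed as DNA, 5' to 3', with each ATTTA in capitals. They lie at chr5:132076076-132076105 (plus strand), chr2:112829995-112830024 (minus strand) and chr19:55365943-55365972 (minus strand) of GRCh38.
CSF2: aaaatATTTATTTATTTATTTATTTAagtt
IL1B: cgcttccctATTTATTTATTTAtttgtttg
IL11: ccagatcttATTTATTTATTTAtttcagta
In IL1A, IL6, LIF, CSF1 and CSF3 alike the longest run was 5 bases. Of these, the corresponding window of CSF1, at chr1:109929054-109929083 on the plus strand, held a single motif and is given for contrast.
CSF1: ccatgctgccactATTTAttgtgagccctg

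Promoter windows from 250 bases before to 50 bases after the start site (RefSeq, GRCh38.p14) were matched for 5 of the 8 genes, IL1A (with 2 start sites), IL1B, IL6, IL11 and CSF2, and searched on both strands. An NF-kB consensus was present in 11.3% of 35116 promoter windows and, of the 5 genes, in IL6 only. The AP-1 motif TGACTCA or TGAGTCA was present in 4.95% of windows and in 2 of the 5 genes, IL1A and IL11. The C/EBP motif TTGCNNAA was present in 10.5% of windows and in 2 of the 5 genes, IL1B and IL6. The windows of IL1B, IL6 and IL11 are printed because each of these 3 genes held a different motif or pair of motifs, with the matches in capitals. They lie at chr2:112836730-112837029 (minus strand), chr7:22726950-22727249 (plus strand) and chr19:55370414-55370713 (minus strand).
IL1B: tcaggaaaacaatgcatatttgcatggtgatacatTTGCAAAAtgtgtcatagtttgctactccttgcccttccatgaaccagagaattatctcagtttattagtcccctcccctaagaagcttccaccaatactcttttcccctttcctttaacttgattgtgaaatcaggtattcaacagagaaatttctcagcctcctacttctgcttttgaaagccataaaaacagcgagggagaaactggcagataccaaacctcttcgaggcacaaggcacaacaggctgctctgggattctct
IL6: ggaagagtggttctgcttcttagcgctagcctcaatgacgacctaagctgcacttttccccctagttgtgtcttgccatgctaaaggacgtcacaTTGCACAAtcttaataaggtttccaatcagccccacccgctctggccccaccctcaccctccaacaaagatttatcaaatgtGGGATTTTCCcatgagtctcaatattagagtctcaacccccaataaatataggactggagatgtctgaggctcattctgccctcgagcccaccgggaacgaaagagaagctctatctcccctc
IL11: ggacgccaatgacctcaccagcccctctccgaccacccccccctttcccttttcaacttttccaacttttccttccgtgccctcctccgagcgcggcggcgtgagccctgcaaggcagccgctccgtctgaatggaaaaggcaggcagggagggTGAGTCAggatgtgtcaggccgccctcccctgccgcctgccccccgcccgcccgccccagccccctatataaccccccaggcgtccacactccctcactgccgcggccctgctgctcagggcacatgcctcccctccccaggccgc
Counted from the start site, the C/EBP match of IL1B began at -215, the C/EBP and NF-kB matches of IL6 at -155 and -73, and the AP-1 match of IL11 at -96. A match is a description of these letters, and binding was not measured.

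The libraries held 25838443 to 50303269 counts. The hairpins lowered CDK16 from 3223 counts to 1360 (log2 fold change -1.52) and 846 (-1.82), and with Reb it had 4996, 4609 and 2797 counts (-0.14 and 0.27). The line's markers VIM, CD44, EGFR, AXL, ZEB1, KRT8 and KRT18 were all measured in every library, and of 5 genes of luminal cells ESR1, PGR and CDH1 had at most 53 counts, while ERBB2 had 996 to 3396 and EPCAM 125 to 408. ESR1, PGR and CDH1 had their highest counts in the 1 uM Reb library, with 12, 16 and 53, against 2, 4 and 7 in DMSO. Of 8 myeloid markers, CD68 was high in every library, at 106 to 235 RPKM (read counts scaled by gene length and library total), and the other 7 summed to 0.449 to 2.71 RPKM. Their highest sum was that of the 1 uM Reb library, the only one in which all 8 had more than 3 counts, with 35 counts of PTPRC and 130 of LYZ, while AIF1 was at 0 in the other 5 libraries. The 6 lymphoid markers summed to 0 to 30 counts per library. The 5 endothelial markers were low but moved with Reb, summing to 2.38, 2.07 and 0.391 RPKM in DMSO, 1 uM and 5 uM, with VWF at 0 at 5 uM. Of the 4 tested, 2 were at least 2-fold lower at 1 uM and 4 at 5 uM, where 1.92% and 27.2% of all genes were. CDH5 had 122, 24 and 11 counts (-2.26 and -2.25), and PECAM1 154, 53 and 4 (-1.52 and -3.82). KDR had 310, 333 and 67 (0.08 and -1.09), and TEK 142, 174 and 8 (0.27 and -2.88). In the knockdown experiment the 5 endothelial markers summed to 1.07, 0.992 and 0.447 RPKM in scramble, CDK16-sh1 and CDK16-sh2, with VWF and TEK at 0 in scramble and CDK16-sh2. The 6 fibroblast markers summed to 1.74 to 2.46 RPKM in the knockdown libraries, and the 5 of them matched in the Reb table to 7.41 to 10.8. THY1 had 1371 to 2135 counts in the Reb libraries against 23 to 43 in the knockdown libraries. COL1A1 had 465, 318 and 602 counts in scramble, CDK16-sh1 and CDK16-sh2, and 861, 1279 and 413 in DMSO, 1 uM and 5 uM. In the same order PDGFRB had 36, 95 and 6 counts (1.08 and -2.18), and 417, 301 and 35 (-0.49 and -2.43). COL1A2 and LUM had at most 8 counts in any library, and DCN had 0 in the knockdown libraries. Mitochondrial genes took 16.4% of counts at 5 uM and 16.2% in CDK16-sh2, against 7.19% to 11.3% in the other 4 libraries. The part of these differences between libraries in the results below was not tested.

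In unperturbed cells the 8 genes were expressed at very different levels, and the 2 controls differed from each other. In the scramble line CSF1 led with 33.9 RPKM, followed by LIF with 17.5, IL11 with 9.49 and CSF2 with 8.56, whereas CSF3 (1.99), IL6 (1.52), IL1B (1.50) and IL1A (0.219) were low. In DMSO IL1B led with 60.8 RPKM, higher than 95.1% of the genes tested, followed by IL11 with 23.4, IL6 with 17.3 and CSF2 with 17.1. CSF1 (13.3), LIF (11.4) and CSF3 (11.2) lay close together in DMSO, and IL1A had 2.78. IL6, IL1B and IL1A thus stood 11.4-fold, 40.5-fold and 12.7-fold higher in DMSO than in scramble, CSF3 5.62-fold, IL11 2.46-fold and CSF2 2.00-fold. CSF1 was 2.54-fold and LIF 1.53-fold lower in DMSO. The controls came from separate tables and differed in hairpin and vehicle, so experiment and condition cannot be told apart in these ratios.

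**Figure D1:**
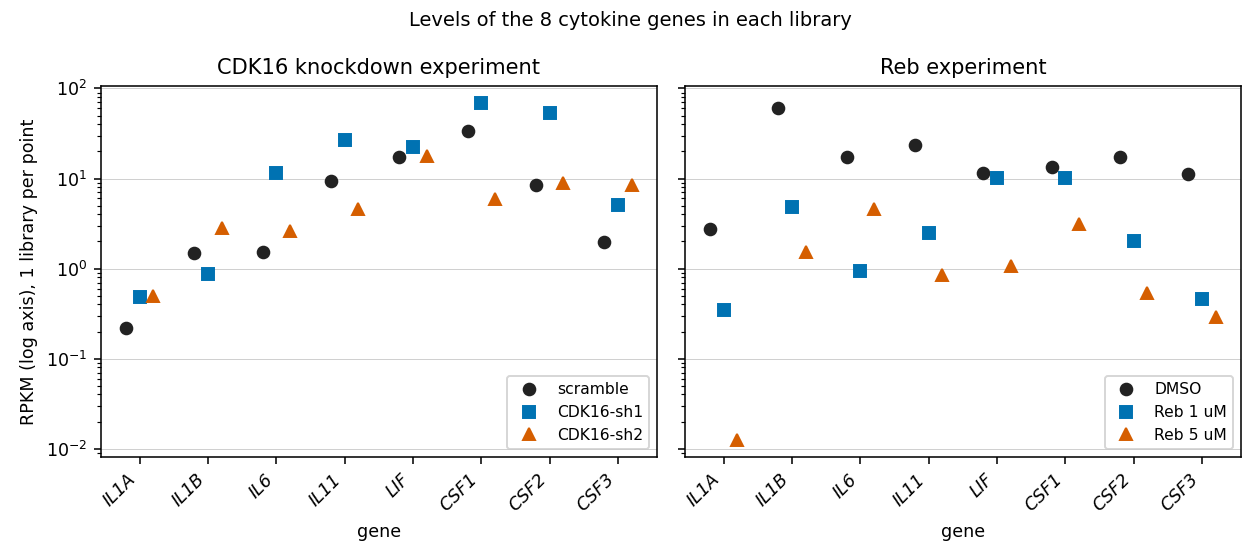
RPKM of the 8 cytokine genes on a log axis, with 1 point per library, in the knockdown experiment (left) and the Reb experiment (right). In DMSO the genes other than IL1A sit between 11.2 and 60.8 RPKM, and at 5 uM Reb all 8 lie below 5 RPKM.

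With Reb, 6 of the 8 genes were at least 2-fold lower at 1 uM and all 8 at 5 uM, and none was higher. Over all 15655 genes tested, those with a mean of at least 1 CPM, 1.92% were at least 2-fold lower at 1 uM and 1.28% higher, and at 5 uM 27.2% were lower and 23.6% higher. As the genes were picked for this contrast, nothing is read from these counts. The median log2 fold change of the 8 was -3.19 at 1 uM and -4.13 at 5 uM, against 0.00 and -0.07 over all genes. Summed over the 8 genes the RPKM went from 157 in DMSO to 31.4 at 1 uM and 12.0 at 5 uM. RPKM is scaled by library total. Compared with the scaling of the fold changes, it shifts the median of all genes by -0.64 on the log2 scale at 5 uM. Because fewer expressing cells and less RNA per cell cannot be told apart in bulk RNA, the levels do not say which of the cells changed.

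CSF3, which encodes the granulocyte growth factor G-CSF, had 1247 counts in DMSO, 51 at 1 uM and 24 at 5 uM. Its log2 fold changes were -4.57 (95% counting interval -5.07 to -4.23) and -4.53 (-5.24 to -4.01), or 23.8-fold and 23.1-fold lower. It ranked 4th lowest of 15655 genes at 1 uM and 62nd at 5 uM. The doses were not distinguishable within counting error, with a log2 difference of 0.04 (-0.72 to 0.77) between 5 uM and 1 uM.

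IL1B had 9469 counts in DMSO, 742 at 1 uM and 177 at 5 uM. It fell 12.9-fold at 1 uM (log2 -3.69, interval -3.81 to -3.59) and 24.7-fold at 5 uM (-4.62, -4.86 to -4.42), and the higher dose lay a further 0.93 below the lower on the log2 scale (difference -0.93, -1.18 to -0.70). IL1B alone made up 42.0% of the counts of the 8 genes in DMSO. At 5 uM IL1B had 1.52 RPKM, higher than 40.4% of the genes tested. The scramble line, from the separate knockdown experiment, had 1.50 RPKM of IL1B, higher than 22.2% of the genes tested there. By rank the levels were thus not equal. IL1A, the neighbour of IL1B and fellow ligand of the IL-1 receptor, had 297, 36 and 1 counts. The log2 fold change was -2.98 (-3.61 to -2.57) at 1 uM, and at 5 uM the ratio on 1 count was -7.11 on the log2 scale with an interval of -12.4 to -4.62.

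IL11, a fibrosis- and metastasis-associated ligand of the gp130 family, had 3139, 326 and 86 counts and had log2 fold changes of -3.28 (interval -3.46 to -3.13) at 1 uM and -4.06 (-4.41 to -3.77) at 5 uM. CSF2, the macrophage and granulocyte factor GM-CSF, had 678, 78 and 16 counts and fold changes of -3.10 (-3.50 to -2.80) and -4.20 (-5.11 to -3.59) on the log2 scale. Both were lower at 5 uM than at 1 uM, by -0.78 (-1.15 to -0.44) for IL11 and -1.10 (-2.03 to -0.36) for CSF2.

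IL6 was the only one of the 8 with a clearly higher level at the higher dose. It had 1800 counts in DMSO, 95 at 1 uM and 356 at 5 uM, so that it was 18.8-fold lower at 1 uM (log2 -4.23, -4.58 to -3.97) but 2.34-fold lower at 5 uM (-1.23, -1.40 to -1.07). The 5 uM library exceeded the 1 uM library by 3.01 (2.71 to 3.38) on the log2 scale. At 1 uM IL6 ranked 7th lowest of 15655 genes and at 5 uM it ranked 3483rd. CXCL2 and CXCL3, chemokines of neutrophils that were named after their values were seen, had the same order, with 662, 35 and 304 counts for CXCL2 and 684, 32 and 296 for CXCL3.

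LIF and CSF1 passed 2-fold only at 5 uM. LIF, the gp130 ligand that keeps stem cells undifferentiated, had 2282 and 1979 counts in DMSO and 1 uM (log2 -0.23, -0.32 to -0.14) and 159 at 5 uM (-2.73, -2.98 to -2.50). CSF1, the survival factor of macrophages, had 3630, 2724 and 643 counts, with log2 fold changes of -0.44 (-0.51 to -0.37) and -1.39 (-1.51 to -1.27). At 1 uM these were the only 2 of the 8 that stayed within 2-fold, and they ranked 3950th and 1870th lowest of 15655 genes. They were also the 2 genes with the lowest density of ATTTA, which is a description of 8 genes and was not tested. A longer motif, TTATTTA followed by 2 bases of A or T, was not ordered in this way. It occurred 3 times in LIF and 0 times in CSF1, CSF3 and IL6. IL1A held 2 copies, IL1B and CSF2 3 each and IL11 7, and 19.8% of the 18258 genes held the motif.

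**Figure D2:**
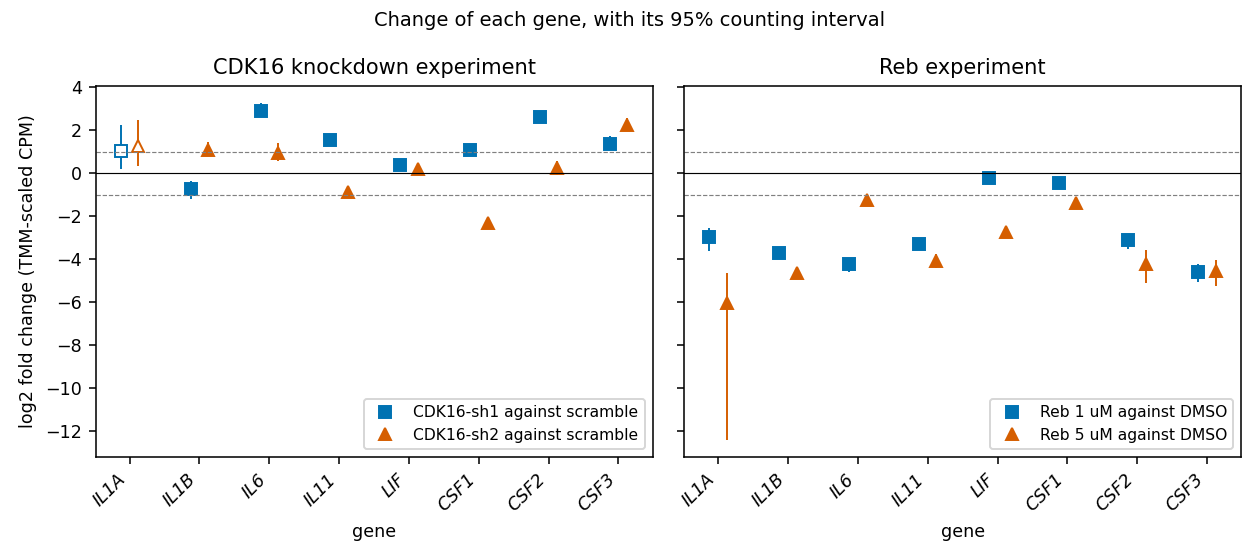
Log2 fold change of TMM-scaled CPM of each gene in CDK16-sh1 and CDK16-sh2 against scramble (left) and in 1 uM and 5 uM Reb against DMSO (right), with 95% counting intervals as bars and dashed lines at 2-fold. Open symbols mark IL1A in the knockdown experiment, which had a mean below 1 CPM there. The point of IL1A at 5 uM, on 1 count, includes the prior count and sits at -6.03. IL6 is lower at 1 uM than at 5 uM, and the other genes except CSF3 are lower at 5 uM.

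Scaling mattered most at 5 uM, where library totals in place of TMM scaling shift the median of all genes by -0.68 on the log2 scale. Under library totals 43.4% of all genes were at least 2-fold lower at 5 uM and 11.7% higher, and all 8 cytokine genes stayed at least 2-fold lower with TMM, DESeq2 size factors, library totals and the authors' RPKM.

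In the knockdown experiment, whose results were also known when the genes were chosen though the stated reason was the fall with Reb, most calls were upward. CSF3 and CSF1 passed 2-fold with both hairpins, CSF3 upward with both and CSF1 in opposite directions. IL1A, with 12, 33 and 29 counts in scramble, CDK16-sh1 and CDK16-sh2, had a mean below 1 CPM and was not tested, which left 7 of the 8. In CDK16-sh1, 5 of 7 were at least 2-fold higher and 0 lower, where 4.33% of 15295 genes were higher and 6.86% lower. In CDK16-sh2, 2 of 7 were at least 2-fold higher and 1 lower, where 2.2% of genes were higher and 7.62% lower. The 7 had a median of 1.39 with CDK16-sh1 and 0.25 with CDK16-sh2, against 0.00 and 0.02 over all genes. Under library totals or RPKM the CDK16-sh2 count was 1 higher and 2 lower, because IL1B then had 0.91 or 0.88 and IL11 -1.06 or -1.05.

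CSF3 was the only one of the 7 tested genes that passed 2-fold in the same direction with both hairpins, and that direction was opposite to its fall with Reb. The share of all genes that passed with both was not counted, and both hairpins share the scramble library, so nothing is read from this count. CSF3 had 114 counts in scramble, 365 in CDK16-sh1 and 517 in CDK16-sh2, or log2 fold changes of 1.39 (1.10 to 1.72) and 2.27 (1.99 to 2.59). In CDK16-sh2 it ranked 2nd highest of 15295 genes. With trends in GC content and length removed its value in CDK16-sh1 was 0.86, so that none of the 7 then passed 2-fold in the same direction with both hairpins. Without the filter on low values IL1A was also 2-fold higher with both (log2 1.05 and 1.25).

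IL6 and CSF2 rose mainly in CDK16-sh1. IL6 had 81, 753 and 149 counts, 2.91 (2.61 to 3.29) higher in CDK16-sh1, the 3rd highest of 15295 genes, and 0.97 (0.59 to 1.39) in CDK16-sh2, just under 2-fold. CSF2 had 174, 1332 and 192 counts, 2.65 (2.43 to 2.90) higher in CDK16-sh1, where it ranked 8th highest, and 0.25 (-0.05 to 0.55) in CDK16-sh2. Its interval in CDK16-sh2 included no change.

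CSF1, IL11 and IL1B had opposite signs with the hairpins, and the share of all genes that did so was not counted. CSF1 had 4740 counts in scramble, 12017 in CDK16-sh1 and 883 in CDK16-sh2, with log2 fold changes of 1.07 (1.02 to 1.11) and -2.32 (-2.42 to -2.21). IL11 had 655, 2311 and 333 counts, with 1.54 (1.42 to 1.67) and -0.87 (-1.06 to -0.68). IL1B had 120, 86 and 242 counts, with -0.74 (-1.17 to -0.35) and 1.11 (0.80 to 1.45). LIF had 1798, 2870 and 1951 counts and stayed within 2-fold, with 0.40 (0.31 to 0.48) and 0.22 (0.13 to 0.32).

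Set directly against CDK16-sh1, CDK16-sh2 was lower for CSF1 by -3.38, the 23rd lowest of 15295 genes, for IL11 by -2.41, for CSF2 by -2.40 and for IL6 by -1.94, and higher for IL1B by 1.85 and CSF3 by 0.88 on the log2 scale. In these values no interval reached 0. The log2 fold changes of CDK16-sh1 moved with the GC content of the genes (Pearson's r across genes 0.485, over the 84.6% of tested genes with a known GC content, which are not independent), against 0.129 for CDK16-sh2. With trends in GC content and length removed, CSF3 (0.86) and CSF1 (0.85) were no longer 2-fold higher in CDK16-sh1, and 3 genes remained, IL6 (2.89), CSF2 (2.35) and IL11 (1.06).

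Taking the 2 hairpins as 1 group against scramble, the quasi-likelihood test of edgeR, adjusted by Benjamini and Hochberg (at most 0.05, at least 2-fold), called 0 of 15295 genes (0%), with 382 at an unadjusted p under 0.05, and DESeq2 called 0, with 233. The cytokine genes with an unadjusted p under 0.05 in edgeR were IL6 (log2 fold change 2.27, adjusted p = 0.794), CSF2 (1.91, adjusted p = 0.9997) and CSF3 (1.91, adjusted p = 0.9997), and none passed the adjustment. In this test the difference between the hairpins counts as the spread.

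**Figure D3:**
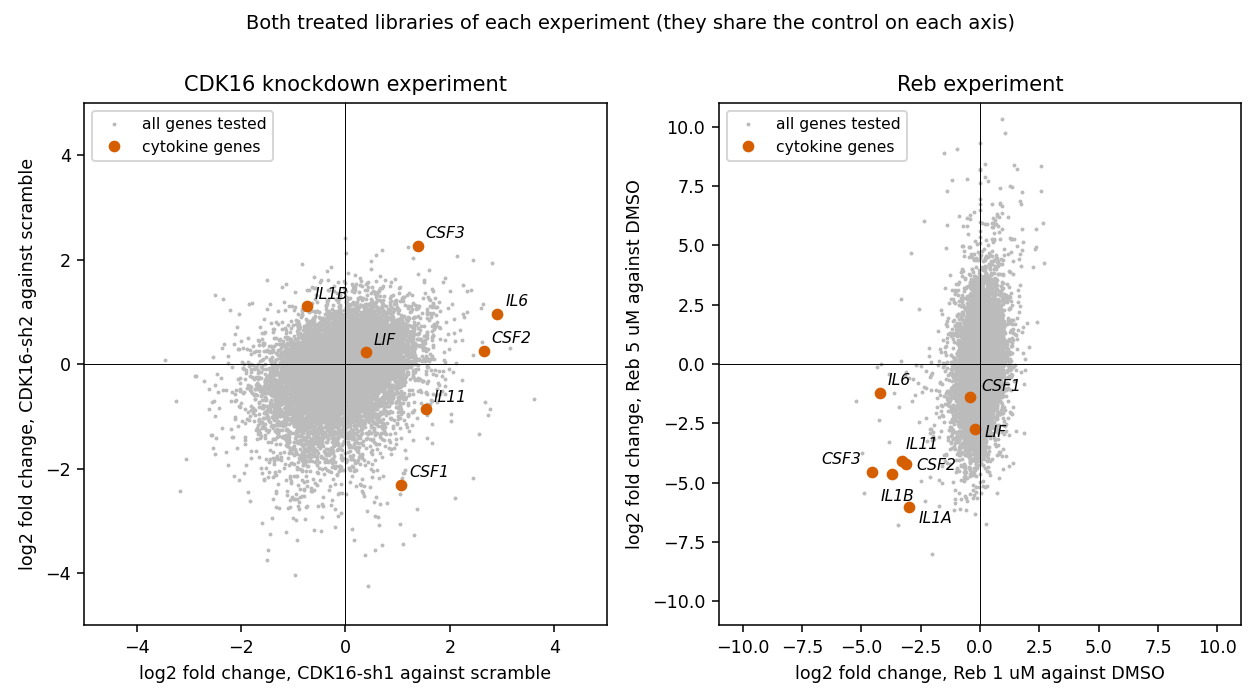
Log2 fold change of every gene tested (grey) and of the cytokine genes (orange) in the 2 treated libraries of the knockdown experiment (left) and of the Reb experiment (right), which share the control on each axis. CSF3 lies high with both hairpins and low with both doses, and IL6 at 1 uM lies at -4.23 but at 5 uM at -1.23.

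Among the receptors of these ligands, IL1R1, the signalling IL-1 receptor, had 140, 194 and 20 counts in DMSO, 1 uM and 5 uM (log2 0.44 and -1.65), and its partner IL1RAP had 529, 663 and 675 counts (0.30 and 1.46). The decoy receptor IL1R2 had at most 6 counts in any library. IL6ST, the shared gp130 chain, had 3713, 3242 and 4031 counts (-0.22 and 1.23), and LIFR had 506, 683 and 542 (0.41 and 1.20). IL6R had 272, 484 and 207 counts with Reb (0.80 and 0.71). IL11RA had 89, 57 and 16 (-0.64 and -1.31). Of the 7 gp130 family receptors tested, 0 were 2-fold lower at 1 uM, where 1.92% of all genes were. At 5 uM 2 were lower and 2 higher, near the shares over all genes of 27.2% and 23.6%.

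The myeloid receptors of the colony-stimulating factors were scarce. CSF3R, the receptor of G-CSF, had at most 5 counts in any of the 6 libraries, and CSF2RB at most 28. CSF2RA had 77, 79 and 6 counts with Reb (0.01 and -2.37), and CSF1R had 70, 47 and 8, below the filter on low values. In the knockdown experiment IL6R rose in CDK16-sh2, from 34 counts to 175 (log2 2.41), with 41 in CDK16-sh1 (-0.01). CSF1R, the receptor of M-CSF, fell in CDK16-sh2, from 46 counts to 13 (-1.59), with 64 in CDK16-sh1 (0.19), and IL1RAP fell in CDK16-sh1, from 187 to 98 (-1.19), with 168 in CDK16-sh2 (-0.05). IL1R1, IL6ST, IL11RA, LIFR and CSF2RA stayed within 2-fold with both hairpins, between -0.97 and 0.22.

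Of 9 other genes of the IL-1 ligand family only IL18 was expressed, with 1975, 3384 and 506 counts with Reb (0.75 and -0.86). Of 28 further interleukins 6 were tested with Reb, of which 2 were lower at 1 uM and 3 higher at 5 uM, where 1.92% and 23.6% of all genes were. KITLG, the stem cell factor that acts on KIT, was the only 1 of 7 other hematopoietic growth factors tested with Reb and was higher at both doses, with 194, 510 and 296 counts (1.36 and 1.71). It was lower with both hairpins, with 82, 38 and 16 counts (-1.33 and -2.13), while IL32 was higher with both, with 179, 715 and 357 counts (1.71 and 1.09).

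All gene lists here were drawn up with earlier results of these data known, so their counts are a description only. The NF-kB module, 16 genes of the NF-kB subunits, their inhibitors and feedback targets, held 7 genes at least 2-fold lower at 1 uM and 0 higher. At 1 uM 1.92% of all genes were lower and 1.28% higher. At 5 uM it held 8 lower and 2 higher, where 27.2% of all genes were lower and 23.6% higher, and its median was -0.69 and -0.91 at the doses. RELB, a subunit of the alternative pathway, had 513, 109 and 24 counts (-2.23 and -3.25), and NFKB2, its partner, 7105, 3274 and 367 (-1.14 and -3.16). NFKBIA, the inhibitor that NF-kB itself induces, had 3754, 1222 and 535 counts (-1.64 and -1.70), and BCL3, a nuclear co-regulator, 525, 172 and 71 (-1.62 and -1.76). In CDK16-sh1 5 of the 16 were at least 2-fold higher, and in CDK16-sh2 0 were, against 4.33% and 2.2% of all genes.

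Of 12 C/EBP and AP-1 genes tested, 4 were lower at 1 uM and 0 higher, against 1.92% and 1.28% of all genes. At 5 uM 1 was lower and 6 higher, against 27.2% and 23.6%. CEBPD, a C/EBP factor of the acute-phase response, was lower at both doses, with 248, 44 and 50 counts (-2.45 and -1.18), and higher with both hairpins, with 83, 323 and 213 (1.66 and 1.45). FOSL1, an AP-1 subunit typical of mesenchymal breast cancer cells, was also higher with both hairpins, from 22090 counts to 60375 and 51293 (1.17 and 1.32). In CDK16-sh1 6 of the 12 were at least 2-fold higher, against 4.33% of all genes.

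Of 10 other secreted inflammatory genes tested, 9 were at least 2-fold lower at 1 uM and 0 higher, against 1.92% and 1.28% of all genes. This list too was drawn up with earlier results known. At 5 uM 3 were lower and 2 higher, near the 27.2% and 23.6% of all genes. CXCL1, a neutrophil chemokine, had 3853, 128 and 40 counts (-4.91 and -5.44). CXCL8, which encodes interleukin 8, had 4967, 160 and 172 (-4.96 and -3.74), and SAA2, an acute-phase protein, 375, 50 and 58 (-2.87 and -1.57). Among 12 tested transducers of the IL-1 receptor, IRAK2 was lower at both doses, with 685, 209 and 4 counts (-1.72 and -5.96). It was the only one lower at 1 uM, where 1.92% of all genes were. At 5 uM the 12 divided into 4 lower and 4 higher, near the 27.2% and 23.6% of all genes. PELI2 of the same list was lower with both hairpins (-1.13 and -1.05). Of 13 factors that control the stability of cytokine mRNAs, 1 was lower at 1 uM, where 1.92% of all genes were. At 5 uM 1 of these factors was lower and 3 were higher, against 27.2% and 23.6% of all genes. ZC3H12A, a ribonuclease that cleaves cytokine mRNAs, was higher with both hairpins, with 268, 999 and 584 counts (1.61 and 1.22).

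**Figure D4:**
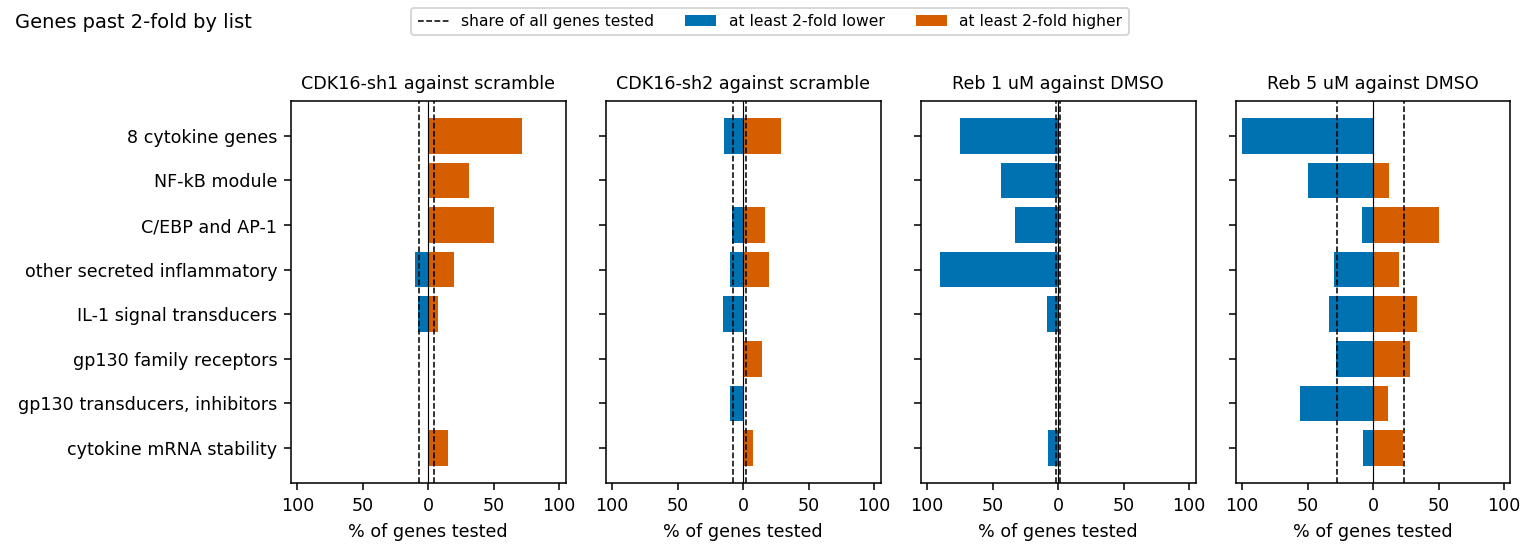
Share of the tested genes of each list that were at least 2-fold lower (blue, to the left) or higher (orange, to the right) in each treated library, with dashed lines at the share of all genes tested. At 1 uM 9 of 10 other secreted inflammatory genes and 7 of 16 NF-kB genes were lower, where 1.92% of all genes were, and at 5 uM the dashed lines stand at 27.2% lower and 23.6% higher. The lists were drawn up with earlier results of these data known, so the shares are a description only.

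The genes whose log2 fold changes over the 4 comparisons lay closest to those of 3 of the cytokines were found by Euclidean distance among 14414 genes expressed in both experiments. Of the 4 comparisons, those with Reb had served to choose CSF3, IL1B and IL11. Closeness among the cytokine genes, or its lack, is therefore a description only. The nearest to IL11 were CSF2 (distance 1.59), RELB (1.67), RELN (1.75), BMF (1.83) and PLAU (1.85). The nearest to IL1B were CXCL8 (1.94), AC021218.2 (2.25), CSF3 (2.58), KYNU (2.73) and ZSWIM4 (2.75), and the nearest to CSF3 were ZSWIM4 (2.19), CXCL8 (2.27), IL1B (2.58), CSF2 (2.82) and KYNU (3.10). CXCL8, the closest to IL1B, had 0.26 and 0.50 with the hairpins and -4.96 and -3.74 with Reb. For LIF and CSF1 the nearest of the other cytokine genes ranked 7549th and 5514th among all genes.

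Apart from IL1A and IL1B, which flank each other, the nearest expressed genes on either side of the 8 lay between -1.42 and 0.89 at 1 uM. The lowest was AC002480.5 beside IL6, with 861, 325 and 27 counts with Reb (-1.42 and -3.83). The highest was P4HA2-AS1 beside CSF2, with 44, 85 and 52 (0.89 and 1.30). At 5 uM the genes flanking LIF had -3.78 (RP1-130H16.18) and 2.98 (HORMAD2-AS1). MED24, 1.28 kb from CSF3, had 3713, 3269 and 572 counts with Reb (-0.21 and -1.59), and PSMD3 on the other side 12694, 8426 and 2156 (-0.61 and -1.45). CKAP2L, 9.24 kb from IL1A, had 5872, 3803 and 253 (-0.65 and -3.42), and PSD4, on the far side of IL1B, 765, 631 and 85 (-0.30 and -2.05). At the locus of IL11, KMT5C had -0.65 and -1.22 and RPL28 -0.78 and 0.72.

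Reads of IL6 and LIF could be shared with antisense genes, since the strand setting of the counting is not given in the sources used here. AC073072.5, antisense to IL6, had 18, 146 and 23 counts in scramble, CDK16-sh1 and CDK16-sh2 and 281, 21 and 55 in DMSO, 1 uM and 5 uM. RP1-102K2.8, antisense to LIF, had 267, 235 and 266 counts and 752, 677 and 49. AC073072.5 and RP1-102K2.8 followed the order of their partner gene with Reb. RP1-102K2.6, a further gene antisense to LIF, had 2, 5 and 5 counts and 0, 1 and 18, opposite to LIF with Reb. Without the strand setting it is not known whether reads of the partners were kept apart.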

How the data were processed

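RNA-seq libraries of MDA-MB-231 cells, 1 for each of 6 conditions, were analysed. The authors prepared stranded mRNA libraries and sequenced them on an Illumina instrument. The submitters' processing notes name Trimmomatic, featureCounts of Subread 1.5.1 and GRCh38, while the aligner, the annotation release and the strand setting are not given in the sources used here. The deposited counts are whole reads per gene symbol without normalization. The deposited RPKM values are these counts divided by gene length and library total.

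Genes that averaged 1 CPM or more in an experiment were kept. Their log2 fold changes are those of TMM-scaled CPM with 2 as prior count (edgeR 4.0.16, R 4.3.3). With 1 library per condition, at least 2-fold counted as a call, and no test was made of a single library or of Reb. Both hairpins together were tested against scramble with edgeR's quasi-likelihood test on the counts. Intervals are 95% Clopper-Pearson intervals and cover counting error only, since copies made by PCR were not marked. Alternatives were DESeq2 1.42.0, library totals, the RPKM with 0.1 added, a prior count of 0.5, no filter, a 4-fold threshold and removal of GC and length trends.

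The genes, lists and alternatives were chosen with earlier results of these data known. Named were all 8 genes, their receptors, list genes past 2-fold in the same direction in both treated libraries of an experiment (at most 4 per list and direction), the 5 genes of nearest pattern for CSF3, IL1B and IL11, flanking genes and CDK16. Markers named by their values and CXCL2 and CXCL3 fall outside this rule. Sequences came from RefSeq (GRCh38.p14) and GENCODE 29.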

Additional observations from a re-analysis of the deposited data

Results flagged for a closer look

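CSF1, IL11 and IL1B moved in opposite directions with the 2 hairpins against the same scramble library. How many of all genes did so was not counted. The log2 difference of CDK16-sh2 from CDK16-sh1 was -3.38 for CSF1 (1.07 with CDK16-sh1 and -2.32 with CDK16-sh2), -2.41 for IL11 (1.54 and -0.87) and 1.85 for IL1B (-0.74 and 1.11). With 1 library per hairpin these differences were not tested, and the difference between hairpins and that between libraries cannot be told apart.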

How the results depend on the processing

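The number of cytokine genes at least 2-fold higher in CDK16-sh1 fell from 5 to 3 with GC and length trends removed, CSF3 and CSF1 being lost, and to 2 at a 4-fold threshold. The other counts of genes past 2-fold stayed within 1.5 times of the values given, under DESeq2 size factors, library totals, RPKM, a prior count of 0.5 and no filter. In CDK16-sh2 the split moved from 1 lower and 2 higher to 2 lower and 1 higher under library totals and under RPKM. At a 4-fold threshold 6 genes remained at 1 uM and 6 at 5 uM. Without a filter IL1A was also 2-fold higher with both hairpins (1.05 and 1.25), on 12 to 33 counts. Of 246 values of single genes under these alternatives 206 lay inside the counting interval, 40 outside it and 0 changed sign past 2-fold. Of 880 counts over the gene lists 763 stayed within 1.5 times and 117 did not, and the cause was not tested. Library totals shift the median of all genes by -0.68 at 5 uM and by -0.19 in CDK16-sh2. The joint test of the hairpins called 0 genes with library totals and without a filter too, with 359 and 586 at an unadjusted p under 0.05. Leaving out 1 hairpin leaves no residual degrees of freedom, so it gives the values of the other hairpin with no test. No paired analysis was possible because each condition had 1 library. Depth limits IL1A most, with 1 count at 5 uM.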
